A study of Homo sapiens with 6 samples.

Results

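TGF-beta ligands, their receptors and the SMAD proteins that carry their signal were followed in SW480 cells with and without knockdown of ZEB1. The 10 genes are TGFB1, TGFB2, TGFBR1, TGFBR2, TGFBR3, SMAD2, SMAD3, SMAD4, SMAD7 and SKIL, chosen by name from the 32029 genes listed in the count tables, and each of the 10 was listed. SW480 is an established human colorectal cancer cell line. The study sequenced total RNA from 6 cultures, 3 transfected with a control siRNA (siControl, genotype given as WT) and 3 with siRNA against ZEB1 (siZEB1), all collected 48 h after transfection. ZEB1 is a zinc finger transcription factor that binds E-box sequences and represses epithelial genes. All cultures are of 1 line, and the number and sequence of the siRNAs behind siZEB1 are not given in the sources used here.

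TGF-beta is secreted in a latent complex, and once released it binds TGFBR2, the type II receptor, which recruits and phosphorylates TGFBR1, the type I receptor. The type I receptor phosphorylates SMAD2 and SMAD3, which join SMAD4 and enter the nucleus to regulate genes. SMAD7 blocks the receptors, SKIL (SnoN) represses SMAD target genes, and both are themselves transcribed in response to the pathway. In colorectal epithelium TGF-beta restrains growth, and loss of SMAD4 or TGFBR2 is common in colorectal cancer.

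Counts summed to between 19040636 and 22357633 reads per culture. In the siControl cultures ZEB1 stood at 58.6, 57.0 and 47.1 CPM (reads per library of equal size after TMM scaling), and in the siZEB1 cultures at 7.20, 6.86 and 8.46 CPM, a change of -2.85 on the log2 scale (SE 0.11, adjusted p = 4.85e-12, edgeR's quasi-likelihood test). Mitochondrial genes took 3.75% to 4.03% of the reads with siControl and 3.60% to 3.66% with siZEB1, and the part of this difference in the values reported here was not tested. Replicate 3 of each group stood farther from the other two of its group than those did from each other (chi-square over degrees of freedom of 7.18 and 9.53 against 3.62 for siControl, and 4.92 and 6.97 against 2.26 for siZEB1), so results are also given without both. By group means, 6 of 11 colorectal epithelial markers reached 1 CPM, KRT20, CDH17, LGR5 and CEACAM5 stayed under it in both groups, and CDX1 was not listed. Their summed level was 4815 to 5438 CPM with siControl and 5329 to 6002 CPM with siZEB1, most of it from KRT8 and KRT18, which were not called. Among the others, EPCAM (8.29-fold), VIL1 (5.07-fold) and KRT19 (3.08-fold) rose with siZEB1, while CDX2 (to 0.407 of its siControl level) and LGR5 (to 0.254) fell, and their part in the results on the 10 genes was not tested. Exons of the opposite-strand gene USP37 cover 44.0% of the exonic bases of VIL1. Of the markers of other cell types, also by group means, 1 of 7 for fibroblasts (COL1A1), 1 of 5 for endothelium (PECAM1) and 0 of 6 for leukocytes reached 1 CPM, while VWF, an endothelial marker, passed it in replicate 2 of each group. Their sums were 9.78 to 11.0, 2.07 to 2.77 and 0.752 to 1.38 CPM with siControl and 7.84 to 9.91, 1.59 to 2.60 and 1.35 to 1.67 CPM with siZEB1.

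Of the 10 genes, 9 passed the filter on low counts, and SMAD4 did not. At an adjusted p under 0.05, 4 of the 9 were lower in the siZEB1 cultures (TGFB1, TGFBR3, SMAD3 and SMAD7), 1 was higher (TGFBR1), and 4 were not called (TGFB2, TGFBR2, SMAD2 and SKIL). Over all 14996 genes tested, 40.2% were called, 21.2% lower and 19.0% higher, so calls were common in this comparison. The 2 groups of cultures did not overlap for 5 of the 9 tested genes, the same 5 that were called, against 49.5% of all genes tested. The median log2 fold change of the 9 was -0.23, beside -0.0055 over all genes tested. That median is the value of TGFB2, which was not called and ranged from -0.92 to 0.10 when single cultures were left out. The nearest values of the 9 on either side were -0.31 (TGFB1) and -0.049 (TGFBR2). No shift of the 9 as a set is therefore concluded from the median. With all cultures, none of the 5 called genes changed by more than 1.5-fold, although TGFBR3 did without replicate 3 of siControl (-0.64 on the log2 scale), of siZEB1 (-0.65) or of both (-0.76), whereas 16.6% of all genes tested did so at an unadjusted p under 0.05.

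Promoter windows are shown for the called genes that hold an E-box of the kind ZEB1 binds, because ZEB1 is the factor knocked down. RefSeq windows of 300 bases on GRCh38.p14, from 250 bases before to 50 after a transcript start, were found for all 10 genes (25 windows), and both strands were searched for CACCTG, whose other strand reads CAGGTG. A match was found for SMAD3, SMAD7 and TGFBR1, or 30% of the 10 genes, beside 24.1% of 27305 genes. Of these 3, SMAD3 and SMAD7 fell and TGFBR1 rose. A gene with more windows has more places for a match. Counted by window, 5 of the 25 held one, beside 20.6% of 35116 windows. The capitals mark the match, and each window is printed 5′ to 3′ on the strand of its gene.
SMAD3, chr15:67166281-67166580, plus strand: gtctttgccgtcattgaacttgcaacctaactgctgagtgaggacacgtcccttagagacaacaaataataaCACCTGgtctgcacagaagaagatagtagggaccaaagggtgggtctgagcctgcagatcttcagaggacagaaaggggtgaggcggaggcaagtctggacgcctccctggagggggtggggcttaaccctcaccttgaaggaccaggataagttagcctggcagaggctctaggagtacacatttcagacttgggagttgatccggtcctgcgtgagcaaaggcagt
SMAD7, chr18:48942758-48943057, minus strand: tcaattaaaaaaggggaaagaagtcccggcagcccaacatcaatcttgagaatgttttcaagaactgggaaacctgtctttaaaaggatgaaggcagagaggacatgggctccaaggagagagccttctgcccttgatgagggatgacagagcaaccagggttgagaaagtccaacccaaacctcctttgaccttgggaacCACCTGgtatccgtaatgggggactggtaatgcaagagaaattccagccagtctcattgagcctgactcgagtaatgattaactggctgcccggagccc
TGFBR1, chr9:99103802-99104101, plus strand: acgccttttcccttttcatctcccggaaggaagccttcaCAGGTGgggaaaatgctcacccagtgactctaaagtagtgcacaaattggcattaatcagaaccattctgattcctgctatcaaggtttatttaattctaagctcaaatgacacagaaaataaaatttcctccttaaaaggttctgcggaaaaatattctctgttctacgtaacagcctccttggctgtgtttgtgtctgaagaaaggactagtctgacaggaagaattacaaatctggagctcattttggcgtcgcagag

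In SMAD3 the match begins 178 bases before the start of an internal, shorter transcript, and the other 4 SMAD3 windows hold none. In SMAD7 it begins 49 bases before the start of an internal transcript, and the other 2 windows hold none. In TGFBR1 it begins 211 bases before a start near the 5′ end of the gene, and of the 8 TGFBR1 windows 2 others also hold a match. The windows of TGFB1 and TGFBR3, which fell, hold no CACCTG. The palindrome GTCTAGAC, a SMAD binding sequence, was in none of the 25 windows and in the windows of 0.256% of genes. These matches are letters in a window, and binding was not measured in these files.

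A 7-base sequence in 3′UTRs, GAACACA, had been singled out in earlier results of these data, and it was looked up in the 10 genes for that reason. It occurs in the 3′UTRs of 1315 of 12321 tested genes (10.7%), whose median log2 fold change was -0.23, beside 0.0065 for the genes without it. As the sequence was singled out in these same data, this difference is no independent evidence, and 3′UTR length was not taken into account. Of the 10 genes it was found in SMAD3 and SMAD4, each with 1 site, shown with the 7 bases in capitals.
SMAD3: cttttgcaGAACACAgtagacag
SMAD4: cctggaatGAACACAgcttctac

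The 3′UTRs of the other 8 genes, including TGFB1, TGFBR3 and SMAD7, hold none. SMAD3 fell with siZEB1, while SMAD4 had 10, 7 and 8 reads with siZEB1 against 3, 5 and 3 with siControl, too few to pass the filter. The part of the site in either value was not tested.

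**Figure D1:**
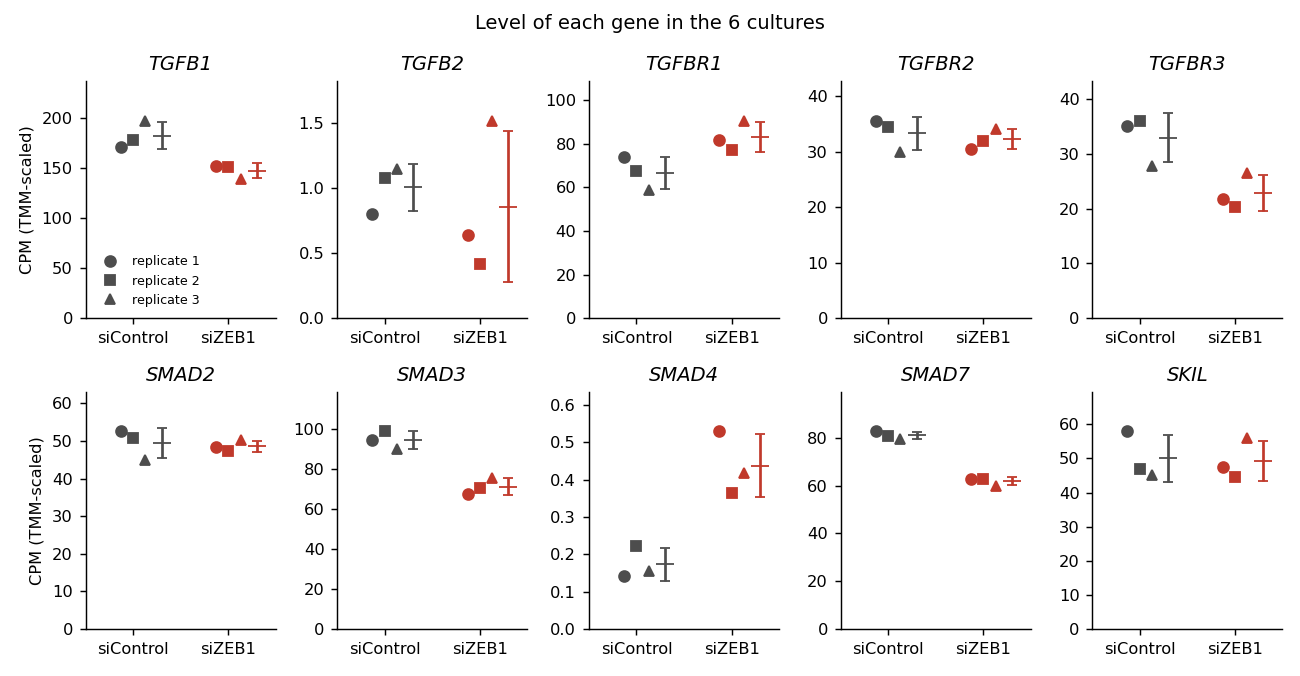
Level of each of the 10 genes in CPM (linear axes from 0, a separate scale per gene) in the 3 siControl and 3 siZEB1 cultures. Each point is a culture, its shape the replicate number, and the bars are the mean and SD of each group (n = 3). The groups are separate for TGFB1, TGFBR1, TGFBR3, SMAD3, SMAD4 and SMAD7 and overlap for the other 4 genes, and SMAD4 stays under 0.6 CPM in every culture.

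TGFB1 (ENSG00000105329, chr19:41301587-41353911, minus strand), the ligand gene with the most reads of the pair studied, fell modestly. It stood at 171, 178 and 198 CPM in the siControl cultures and at 152, 151 and 139 CPM in the siZEB1 cultures. All siZEB1 cultures were below all siControl cultures. The mean level went from 182 ± 13.6 to 147 ± 7.49 CPM (SD, n = 3 each), a change of -0.31 on the log2 scale (SE 0.067, 95% interval -0.45 to -0.16, adjusted p = 0.00145). Without both replicates 3 the change was smaller, -0.20, and still called. Exons of the opposite-strand neighbour HNRNPUL1 cover 6.64% of its exonic bases, and whether the counting used the strand is not given in the sources used here.

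TGFB2 (ENSG00000092969, chr1:218346235-218444619, plus strand) had few reads, and its siZEB1 cultures were far apart. Its siControl cultures held 17, 24 and 22 reads (0.799, 1.07 and 1.14 CPM), and its siZEB1 cultures 12, 8 and 29 reads (0.636, 0.416 and 1.52 CPM). The siZEB1 cultures included both the lowest and the highest value, so the groups overlapped. On the log2 scale the change was -0.23 with a 95% interval of -1.07 to 0.62 (adjusted p = 0.687), and it turned to 0.10 without replicate 2 of siZEB1 and to -0.92 without replicate 3. The interval therefore holds changes of either sign, and 26.6% of the exonic bases are shared with the same-strand gene TGFB2-OT1.

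The third ligand, TGFB3, was also scarce, at 3.32 ± 0.910 CPM in siControl and 2.22 ± 0.508 CPM in siZEB1 cultures (SD, n = 3 each). Its groups overlapped and it was not called (log2 fold change -0.57, adjusted p = 0.0617), although it was called without replicate 2 of siControl (adjusted p = 0.0121) or of siZEB1 (adjusted p = 0.0345) and with no filter (adjusted p = 0.0292).

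Among the receptors the 3 genes went different ways. TGFBR1 (ENSG00000106799, chr9:99104038-99154192, plus strand), the type I kinase, was the single gene of the 10 to be called higher. Its level was 73.7, 67.3 and 58.8 CPM with siControl and 81.5, 77.1 and 90.6 CPM with siZEB1. The lowest siZEB1 culture lay just above the highest siControl culture. The mean went from 66.6 ± 7.46 to 83.0 ± 6.90 CPM (SD, n = 3 each), a change of 0.32 on the log2 scale (SE 0.084, 95% interval 0.14 to 0.50, adjusted p = 0.00612). Replicate 3 was the lowest of its group with siControl and the highest with siZEB1, and without both of these cultures the log2 fold change was 0.17, still called. Of the genes with an E-box in a promoter window, it was the one that rose.

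TGFBR2 (ENSG00000163513, chr3:30606502-30694142, plus strand), the type II kinase that binds the ligand first, was at 35.6, 34.4 and 29.9 CPM with siControl and at 30.6, 32.0 and 34.2 CPM with siZEB1. The groups overlapped over most of their range. The log2 fold change was -0.049 (SE 0.084, adjusted p = 0.678), with a 95% interval of -0.23 to 0.13, which does not reach a change of 1.5-fold in either direction.

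The read ratio of TGFBR1 to TGFBR2, which does not depend on how the libraries are scaled, was 2.07, 1.95 and 1.97 in the siControl cultures and 2.67, 2.41 and 2.65 in the siZEB1 cultures. Every siZEB1 culture had the higher ratio, a difference of 0.37 on the log2 scale. An exact two-sided permutation test over the 6 cultures gave p = 0.1, the smallest that 3 against 3 can give (0.1 after Benjamini-Hochberg adjustment over 2 ratios). Leaving out single cultures kept the difference between 0.34 and 0.41.

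TGFBR3 (ENSG00000069702, chr1:91680343-91906335, minus strand), or betaglycan, a co-receptor that presents ligand, above all TGF-beta 2, to the signalling receptors, had the largest fall among the tested genes of the 10. It was at 35.0, 36.0 and 27.8 CPM with siControl and at 21.7, 20.3 and 26.5 CPM with siZEB1. The groups were separate, but their replicates 3 lay close together. The mean went from 32.9 ± 4.52 to 22.8 ± 3.24 CPM (SD, n = 3 each), a change of -0.53 on the log2 scale (SE 0.11, 95% interval -0.76 to -0.30, adjusted p = 0.000953), and without both replicates 3 it was -0.76.

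**Figure D2:**
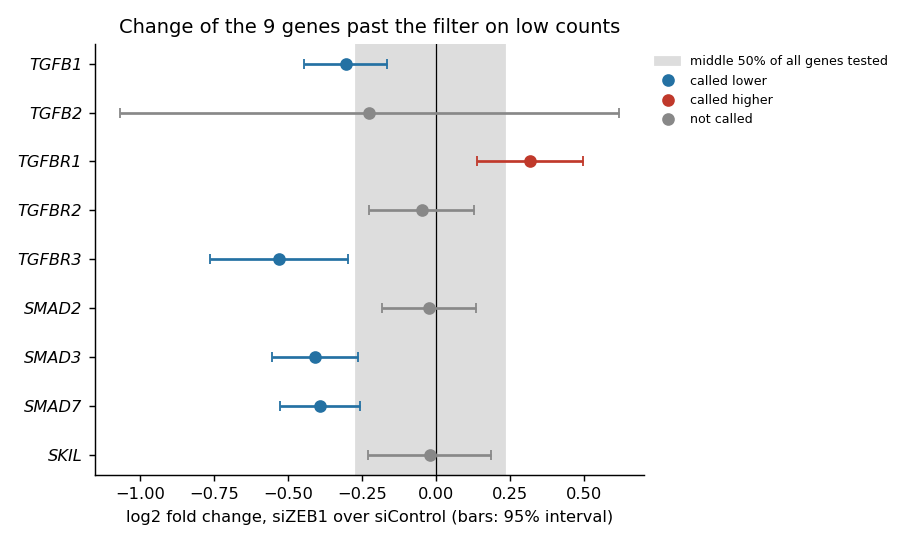
Log2 fold change of siZEB1 over siControl (x axis) for the 9 genes past the filter on low counts, with 95% intervals as bars. Blue marks genes called lower, red higher and grey not called at an adjusted p under 0.05, and the shaded band holds the middle 50% of all genes tested, from -0.27 to 0.23. The 5 called genes have intervals clear of 0, and the interval of TGFB2 is the widest.

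The receptor-regulated SMADs differed from each other. SMAD2 (ENSG00000175387, chr18:47808957-47931146, minus strand) was at 52.6, 50.8 and 44.9 CPM with siControl and at 48.4, 47.3 and 50.2 CPM with siZEB1. All 3 siZEB1 cultures lay within the range of the siControl cultures. The log2 fold change was -0.024 (SE 0.075, 95% interval -0.18 to 0.13, adjusted p = 0.827).

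SMAD3 (ENSG00000166949, chr15:67063763-67195195, plus strand), the receptor-regulated SMAD that in its main form binds DNA directly, fell. It stood at 94.5, 99.1 and 90.3 CPM with siControl and at 67.6, 70.6 and 75.8 CPM with siZEB1. The groups were separated by more than the range of either. The mean went from 94.6 ± 4.41 to 71.3 ± 4.13 CPM (SD, n = 3 each), a change of -0.41 on the log2 scale (SE 0.069, 95% interval -0.55 to -0.26, adjusted p = 0.000142), and it was -0.48 without both replicates 3. It is the one tested gene of the 10 whose 3′UTR holds GAACACA, and its E-box lies before an internal start.

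The read ratio of SMAD3 to SMAD2 was 1.80, 1.95 and 2.01 with siControl and 1.40, 1.49 and 1.51 with siZEB1. Every siZEB1 culture had the lower ratio, a difference of -0.39 on the log2 scale, for which the exact two-sided permutation test again gave its smallest possible value, p = 0.1 (0.1 after adjustment over the 2 ratios). Leaving out single cultures kept the difference between -0.43 and -0.35.

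SMAD4 (ENSG00000141646, chr18:51028394-51085045, plus strand), the partner common to all receptor-regulated SMADs, was almost without reads. Only 3, 5 and 3 reads were counted with siControl, against 10, 7 and 8 reads with siZEB1, or 0.141, 0.223 and 0.156 CPM and 0.530, 0.364 and 0.418 CPM. All siZEB1 cultures were above all siControl cultures, but with 11 reads in one group and 25 in the other. With no filter, edgeR's quasi-likelihood test gave a change of 1.29 on the log2 scale (SE 0.63), which was not called (adjusted p = 0.169 over 32029 genes). SW480 is widely used as a SMAD4-deficient line, which is background here and not a result of these data. In addition, 7.37% of the exonic bases of SMAD4 are shared with AC091551.1, a same-strand gene that the tables do not list.

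The protein-coding genes on either side of SMAD4 were looked at after its values were seen, the 4 nearest on each side on chromosome 18. The nearest upstream is AC091551.1 (50968019-51058144), which is not listed and so has no counts. Its span overlaps those of ELAC1 and SMAD4, and the part of this overlap in their counts was not tested. Upstream, ME2, a mitochondrial malic enzyme, went from 42.6 ± 2.48 to 21.1 ± 2.25 CPM (SD, n = 3 each), and it fell by 1.01 on the log2 scale (adjusted p = 1.06e-07). ELAC1, a tRNA 3′-processing enzyme gene between ME2 and SMAD4, was at 0.580 ± 0.164 and 0.927 ± 0.140 CPM and was not called (log2 fold change 0.68, adjusted p = 0.137). Downstream, MEX3C, an RNA-binding ubiquitin ligase, was at 47.8 ± 4.68 and 49.8 ± 3.09 CPM (log2 fold change 0.061, adjusted p = 0.585). Reads were thus scarce over SMAD4 and ELAC1 and not over ME2 and MEX3C. Farther out, MRO and DCC were under 0.1 CPM in both groups and below the filter. POLI was at 2.57 and 2.23 CPM and MBD2 at 34.8 and 36.6 CPM, and neither was called.

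**Figure D3:**
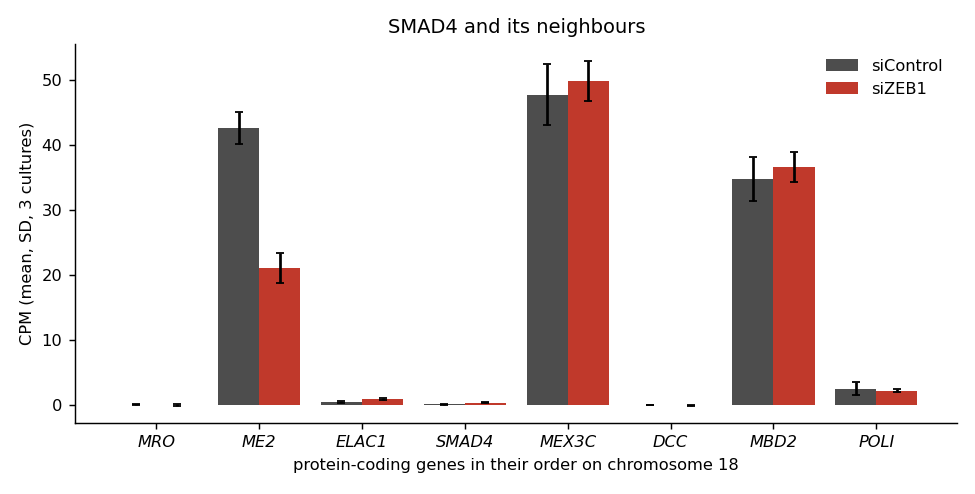
Mean level in CPM (bars from 0, with the SD of 3 cultures) of SMAD4 and the listed protein-coding genes nearest to it, in their order on chromosome 18, for siControl and siZEB1. SMAD4 and ELAC1 stay under 1 CPM between ME2 and MEX3C, which are at 42.6 and 47.8 CPM with siControl.

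SMAD7 (ENSG00000101665, chr18:48919853-48952052, minus strand), the inhibitory SMAD of the TGF-beta branch, fell with the smallest spread among the called genes. It stood at 82.8, 80.9 and 79.7 CPM with siControl and at 62.9, 62.6 and 59.9 CPM with siZEB1. The groups lay far apart relative to their ranges. The mean went from 81.1 ± 1.54 to 61.8 ± 1.65 CPM (SD, n = 3 each), a change of -0.39 on the log2 scale (SE 0.064, 95% interval -0.53 to -0.26, adjusted p = 0.000111), and it was -0.38 without both replicates 3.

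SKIL (ENSG00000136603, chr3:170357678-170396835, plus strand), the corepressor, was at 58.0, 46.9 and 45.3 CPM with siControl and at 47.6, 44.5 and 56.0 CPM with siZEB1. In each group 1 culture stood above the others, replicate 1 with siControl and replicate 3 with siZEB1, and the groups overlapped. The log2 fold change was -0.021 (SE 0.099, 95% interval -0.23 to 0.19, adjusted p = 0.884). Without both replicates 3 it was -0.18 and called lower (adjusted p = 0.0310), and without replicate 1 of siControl it was 0.098, so that its direction rested on single cultures. Its relative SKI, a corepressor of the same family, was at 90.8 ± 1.41 and 98.4 ± 2.78 CPM (SD, n = 3 each) and was not called (log2 fold change 0.12, adjusted p = 0.145), though it was without both replicates 3 (log2 fold change 0.14, adjusted p = 0.0460).

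Levels of different genes were set side by side only per length, as CPM per kilobase of the merged exons of each gene in GENCODE 29. In the siControl cultures TGFB1 was the highest of the 10, at 56.3 ± 4.21 CPM per kilobase, followed by SMAD7 at 16.1 ± 0.305, SMAD3 at 10.4 ± 0.484, TGFBR1 at 9.73 ± 1.09 and TGFBR2 at 7.08 ± 0.636 CPM per kilobase (SD, n = 3 each). SKIL was at 6.43 ± 0.887, TGFBR3 at 3.78 ± 0.519, SMAD2 at 1.36 ± 0.110, TGFB2 at 0.195 ± 0.0351 and SMAD4 at 0.0132 ± 0.00334 CPM per kilobase. The ranges over cultures overlapped between SMAD3 and TGFBR1 and between TGFBR2 and SKIL, so these neighbours were not separated, whereas the other neighbours were. The order depended on the gene model. With the median length of all transcripts 4 of the 10 genes kept their place, and with that of basic coding transcripts, a length added after the data were seen, 6 did. TGFB1 in the first place, TGFB2 in the ninth and SMAD4 in the last held with all 3 lengths in siControl, as did SMAD3 above SMAD2, although TGFB1 overlapped with SMAD7 on basic coding transcripts and TGFB2 with SMAD4 on the median of all transcripts. The low place of SMAD2 goes with its merged exon length of 36366 bases, of which 32870 bases are the 3′UTR of the transcript searched for the 7-base sequence. With siZEB1 and merged exons, TGFBR1, at 12.1 ± 1.01 CPM per kilobase, stood above SMAD3, at 7.82 ± 0.454 CPM per kilobase, and overlapped with SMAD7, at 12.3 ± 0.328 CPM per kilobase.

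The baseline of the SMAD family was uneven. With siControl and merged exons, SMAD5, which carries BMP signals, was the highest of the 8 SMAD genes at 17.3 ± 1.99 CPM per kilobase and was not separated from SMAD7. With basic coding transcripts it was lower, at 22.5 CPM per kilobase, than SMAD7 at 63.5 and SMAD3 at 61.8 CPM per kilobase, without overlap. The other BMP-branch genes were lower, at 2.03 ± 0.330 CPM per kilobase for SMAD1 and 0.108 ± 0.00128 for SMAD9, and SMAD6, the second inhibitory SMAD, was at 1.19 ± 0.253 CPM per kilobase, not separated from SMAD2. SMAD4 was the lowest of the 8 with merged exons and with basic coding transcripts, and with the median length of all transcripts SMAD9 was lower. SMAD6 fell from 10.2 ± 2.17 to 5.45 ± 0.305 CPM (log2 fold change -0.89, SE 0.15, adjusted p = 0.000127), so that both inhibitory SMADs fell. SMAD1 (log2 fold change -0.26, adjusted p = 0.125), SMAD5 (-0.11, adjusted p = 0.311) and SMAD9 (0.14, adjusted p = 0.798) were not called. Antisense genes cover 6.21% of the exonic bases in SMAD1 and 6.75% in SMAD5. Without both replicates 3, SMAD1 (-0.47, adjusted p = 0.000730) and SMAD5 (-0.25, adjusted p = 2.29e-05) were called lower. SMAD1 was also called without replicate 3 of siControl (adjusted p = 0.0253) or of siZEB1 (adjusted p = 0.0409), and SMAD5 without replicate 3 of siControl (adjusted p = 0.0192).

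**Figure D4:**
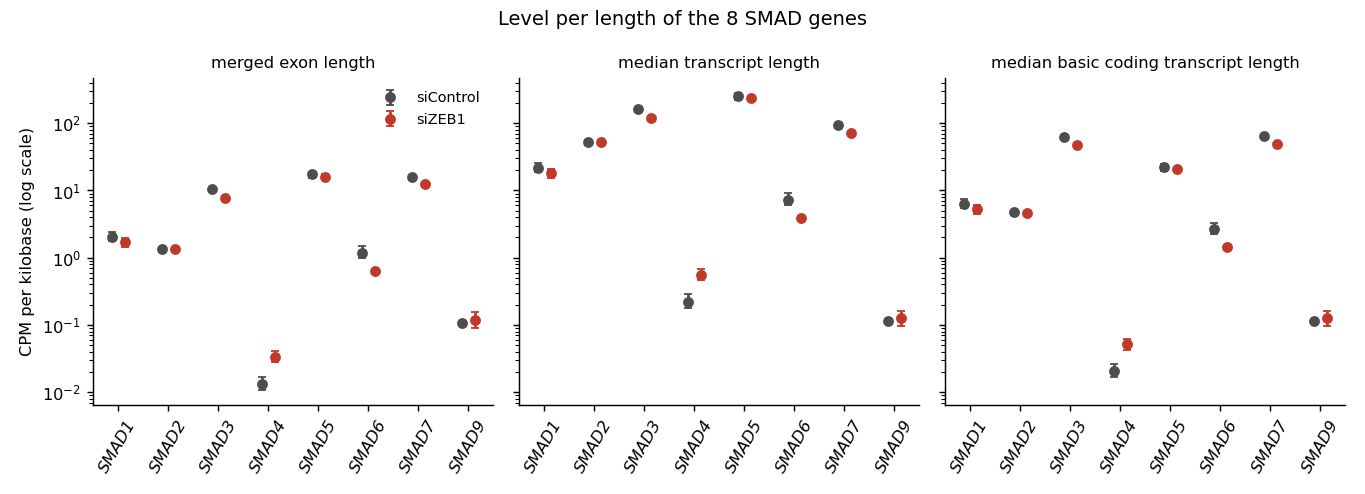
Level of the 8 SMAD genes in CPM per kilobase (log axis) with siControl and siZEB1, with 1 panel for each of the 3 gene-model lengths. Points are means of 3 cultures and bars run from the lowest to the highest culture. SMAD4 is last in 2 of the panels, above SMAD9 in the panel of median transcript length, and SMAD3 is above SMAD2 in all 3.

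The other genes of the pathway were read from 7 lists by role, 115 genes in all, of which 95 were tested, 22 were called higher and 28 lower (52.6% called, beside 40.2% of all genes tested), and their median log2 fold change was -0.033. The lists were chosen with earlier results of these data known, so no conclusion is drawn from the difference between these shares. Of 11 other ligands, 5 were tested, and 2 were higher and 2 lower, with a list median of -0.57. That median is the value of TGFB3, which was not called. GDF11, an activin-like ligand that acts through SMAD2 and SMAD3, fell from 42.3 ± 1.60 to 14.3 ± 0.902 CPM (log2 fold change -1.57, adjusted p = 2.81e-10), the largest fall among the pathway genes tested. INHA, the inhibin alpha chain, fell from 1.65 ± 0.686 to 0.664 ± 0.0560 CPM (-1.29, adjusted p = 0.00588) and was not called without both replicates 3 (-0.87, adjusted p = 0.0816). INHBE, an activin chain, rose from 1.93 ± 0.416 to 4.30 ± 0.770 CPM (1.16, adjusted p = 0.000254), and GDF15, a stress-induced distant relative that signals through another receptor, rose by 0.48 (adjusted p = 0.0111) and was not called without replicate 2 of siControl (0.40, adjusted p = 0.0614).

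Outside the cell, 16 genes of latency, activation and extracellular inhibition were listed, 10 were tested, 2 were higher and 3 lower, with a median of 0.031. LTBP4, which binds latent TGF-beta 1 in the matrix, fell from 45.4 ± 7.53 to 28.2 ± 1.27 CPM (log2 fold change -0.69, adjusted p = 3.62e-05), while LTBP2, a relative that does not bind latent TGF-beta, rose from 15.5 ± 1.24 to 23.5 ± 0.662 CPM (0.60, adjusted p = 4.45e-05). THBS1, an activator of latent TGF-beta, rose by 0.37 (adjusted p = 0.00292), and FSTL3, an activin antagonist, fell by 0.55 on the log2 scale (adjusted p = 0.00151). The remaining called gene, BGN, a matrix proteoglycan named here after its value was seen, fell by 1.06 on the log2 scale at about 1 CPM (adjusted p = 0.0237).

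All 9 other receptors were tested, 3 were higher and 2 lower, with a median of -0.049. ACVR1, a type I receptor for BMPs, fell from 41.9 ± 1.25 to 25.6 ± 1.45 CPM (log2 fold change -0.71, adjusted p = 1.28e-06). BAMBI, a pseudoreceptor that lacks a kinase and dampens TGF-beta signalling, rose from 81.7 ± 4.89 to 105 ± 4.59 CPM (0.36, adjusted p = 0.000406). ACVR1C, a type I receptor of the activin branch, rose from 0.765 ± 0.0891 to 1.59 ± 0.539 CPM (1.05, adjusted p = 0.0127), and was not called without replicate 3 of siZEB1 (0.75, adjusted p = 0.0933), without replicate 2 of siControl (0.96, adjusted p = 0.0523) or without both replicates 3 (0.76, adjusted p = 0.122). ACVR2B, an activin type II receptor whose groups overlapped, was called lower (-0.35, adjusted p = 0.00906). It was -0.54 without both replicates 3, but the call was lost without replicate 2 of siControl (adjusted p = 0.0558) and without replicate 1 (adjusted p = 0.0503) or 2 (adjusted p = 0.0524) of siZEB1. The other activin type II receptor, ACVR2A, named after its value was seen, was called higher by 0.25 (adjusted p = 0.0482).

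Of 25 partners and regulators of SMADs, 24 were tested, 5 were higher and 9 lower, with a median of -0.086. PMEPA1, a TGF-beta-induced membrane protein that holds SMAD2 and SMAD3 away from the receptor, had the largest rise in the list. It was at 23.3, 23.3 and 23.3 CPM with siControl and at 43.0, 47.1 and 47.0 CPM with siZEB1, a change of 0.97 on the log2 scale (SE 0.076, adjusted p = 2.98e-08). The siControl values are alike to the third digit, and the opposite-strand gene NKILA covers 6.10% of the exonic bases. EP300, a histone acetyltransferase that SMADs recruit, fell from 137 ± 12.8 to 90.9 ± 7.84 CPM (-0.59, adjusted p = 1.49e-05). DAB2, an adaptor between receptors and SMADs, fell by 0.51 (adjusted p = 3.39e-05) and USP15, a deubiquitinase that acts on the receptor and SMADs, by 0.45 (adjusted p = 5.97e-05). The other 4 genes called higher, named after their values were seen, were TGIF2, RNF111, STRAP and PIAS4, at 0.28 to 0.38. The remaining genes called lower, also named afterwards, were STUB1 (-0.42), SMURF2 (-0.40), TGIF1 (-0.36), CITED2 (-0.31), ZFYVE9 (-0.26) and USP11 (-0.19). Exons of the opposite-strand gene JMJD8 cover 42.4% of the exonic bases of STUB1, and the part of this overlap in its value was not tested.

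In the SMAD-independent branch, 13 of 14 genes were tested, 2 were higher and 3 lower, with a median of -0.025. MAPK14, the p38 alpha kinase, fell from 99.8 ± 6.81 to 60.4 ± 4.18 CPM (log2 fold change -0.73, adjusted p = 6.86e-07). SHC1, an adaptor to RAS signalling, fell by 0.45 (adjusted p = 1.82e-05) and MAPK8, the JNK1 kinase, by 0.42 (adjusted p = 0.000219). MAP2K4, a kinase upstream of JNK, rose by 0.26 (adjusted p = 0.0173) and was not called without replicate 2 of siControl (adjusted p = 0.0542) or of siZEB1 (adjusted p = 0.0987). The second gene called higher, RHOA, named after its value was seen, rose by 0.16 (adjusted p = 0.0230). Without both replicates 3, the genes of this list called lower numbered 5.

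Genes that TGF-beta induces in many cells were split evenly. Of 36 listed, 30 were tested, 8 were higher and 8 lower, and the median was -0.0095 on the log2 scale. CCN2, a matricellular protein and a common readout of the pathway, rose from 1.90 ± 0.143 to 2.81 ± 0.256 CPM (0.57, adjusted p = 0.0286), a call that rested on few reads and was lost in 7 of 13 alternatives. TGFBI, a matrix protein, fell from 17.3 ± 1.15 to 7.30 ± 0.193 CPM (-1.24, adjusted p = 6.27e-08), and FN1, fibronectin, fell from 13.1 ± 1.32 to 6.85 ± 0.538 CPM (-0.94, adjusted p = 6.41e-06). COL4A2, a basement membrane collagen, rose from 15.2 ± 0.558 to 25.2 ± 1.46 CPM (0.73, adjusted p = 3.89e-06).

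**Figure D5:**
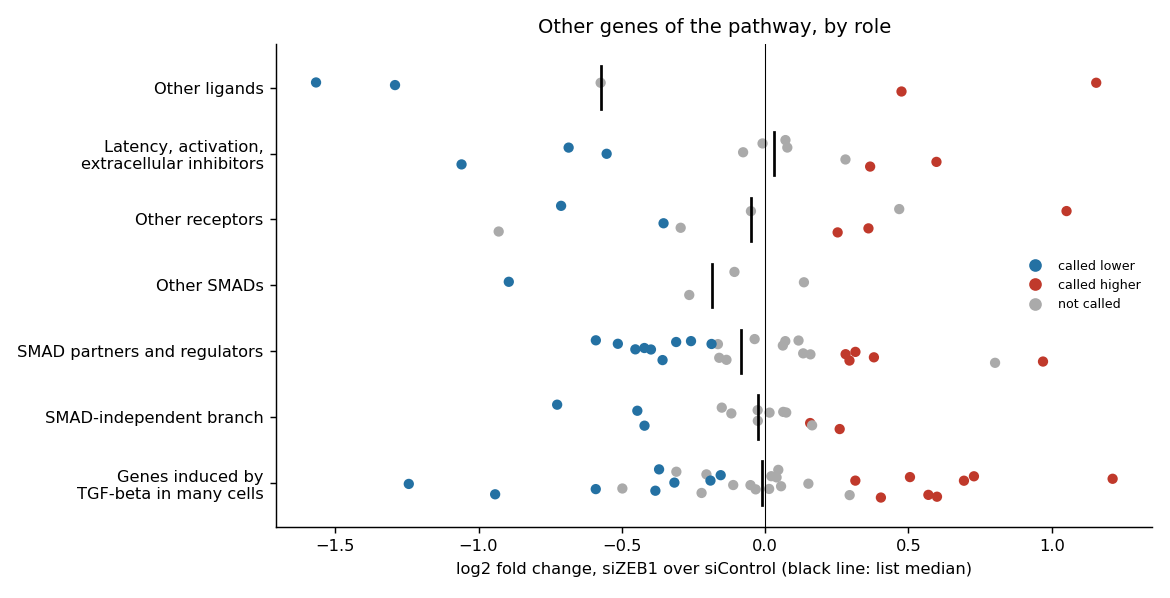
Log2 fold change of siZEB1 over siControl (x axis) for the tested genes of 7 pathway lists (rows), with 1 point per gene, blue called lower, red called higher and grey not called, and a black line at each list median. Vertical scatter within a row has no meaning. Genes called in both directions occur in 6 of the lists, and the list of other SMADs holds 1 gene called lower and 0 higher.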

How the data were processed

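SW480 cells were transfected with siControl (3 cultures) or siZEB1 (3 cultures), and per culture the authors deposited raw read counts on genes, not normalized. The submitters' processing notes name Trimmomatic, HISAT2, SAMtools, featureCounts and hg38, without versions. The annotation and the strand setting are not given in the sources used here. The study's methods call the samples biological replicates. Gene IDs were matched to GENCODE 29 on GRCh38 for positions and lengths.

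Total counts per culture were 19040636 to 22357633, so that genes near 1 CPM rest on about 20 reads per culture. In R 4.3.3 with edgeR 4.0.16, 14996 of 32029 genes passed filterByExpr, libraries were scaled by TMM, and siZEB1 was compared with siControl by the two-sided quasi-likelihood test. No covariate was used, and p-values were adjusted by Benjamini-Hochberg across those 14996 genes. The biological coefficient of variation was 6.58%. Levels are CPM with the same factors, fold changes are log2 of siZEB1 over siControl, and a gene was called at an adjusted p under 0.05. The 2 read ratios were tested by exact permutation with scipy 1.17.1. The fit was also run on simulated counts, in which fewer genes changed than were called here, and by more than the 9 tested genes did. That run therefore does not cover changes of the size reported for these genes.

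The members and all lists were chosen with earlier results of these data known. From each of the 7 role lists, the text names up to 4 called genes with the largest change among those with a mean of at least 1 CPM, and TGFB3, SMAD1, SMAD5, SMAD6, SMAD9, SKI and CCN2 whatever their value. Some genes under this rule are left out here. Alternatives were DESeq2 1.42.0, median-of-ratios and library-size scaling, no filter, a minimum of 10 counts, a block for the replicate number, fits without single cultures, a fold threshold and another gene length. The length of basic coding transcripts, the fit without both replicates 3 and the neighbours of SMAD4 were added after the data were seen. Same-numbered cultures of the 2 groups did not deviate together (r = -0.048, -0.082 and -0.19), so the numbers were not taken as pairs.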

Additional observations from a re-analysis of the deposited data

How the results depend on the processing

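The 5 called genes of the pathway core, TGFB1, TGFBR1, TGFBR3, SMAD3 and SMAD7, kept their direction and their call in all 13 alternatives, of which the fit without both replicates 3 was added after the data were seen. Of the 27 called genes that the naming rule picks from the role lists, 21 did so. When calls needed more than 1.5-fold and a raw p under 0.05, 1081 genes were higher and 1402 lower, among them 0 and 0 of the 9 tested genes of the 10. SMAD4 was not tested. With each culture left out in turn, 2293 to 2928 genes were called higher and 2617 to 3284 lower, with 1 and 4 of the 10 genes in each fit. The ratio differences were between -0.43 and -0.35 for SMAD3 to SMAD2 and between 0.34 and 0.41 for TGFBR1 to TGFBR2. The direction turned in genes that were not called: in TGFB2 (left-out range -0.92 to 0.10), TGFBR2 (left-out range -0.12 to 0.00073), SMAD2 (left-out range -0.088 to 0.022), SKIL (left-out range -0.12 to 0.098) and SMAD9 (left-out range -0.10 to 0.30, and -0.094 without both replicates 3). The cause was not tested. In the order of levels per length, 4 genes kept their place with the median transcript length and 6 with the basic coding length. TGFB2 and SMAD4 have under 30 reads in every culture, and the siZEB1 cultures of TGFB2 were far apart (12, 8 and 29 reads). The part of depth in these values was not tested.

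Replicate numbers were not taken as pairs, and samples with the same number did not correlate best with each other. Whether same-numbered cultures were prepared together is not given in the sources used here. With the number as a block, 2289 genes were called higher and 2679 lower, 1 and 4 of the 10 genes among them. CCN2 lost its call (log2 fold change 0.57, adjusted p = 0.0524), and in the SMAD-independent branch the genes called higher went from 2 to 1.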
